A study of Mus musculus with 12 samples.

Results

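The 10 genes described here encode proteins of the muscle thick filament: the myosin heavy chains Myh4, Myh1, Myh2 and Myh7, the myosin light chains Myl1, Mylpf, Myl3 and Myl2, and the myosin-binding proteins Mybpc2 and Mybpc1. They were chosen by name from the 55450 genes of GENCODE release M21, and every listed AGO2 peak that overlapped one of them on the same strand by at least 1 nt was kept, with no threshold. Myh4, Myh1, Myh2, Myl1, Mylpf and Mybpc2 are the 6 fast fibre genes of this set, and Myh7, Myl3, Myl2 and Mybpc1 are the 4 slow fibre genes. Of all listed peaks, the 10 genes held 509 of 92451 in WT set 1, 840 of 244814 in WT set 2, 539 of 119859 in KO set 1 and 790 of 256219 in KO set 2.

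Chimeric eCLIP is a crosslinking method in which RNA bound to AGO2, the protein that carries mature miRNAs, is pulled down and sequenced beside an input taken from the same lysate. Tibialis anterior (TA) muscle of male mice aged 6 months was used, from wildtype (WT) and mir-486 knockout (KO) animals. The WT libraries are labelled C57BL/6 and the KO libraries FVB N/J, whereas the methods state that the FVB line was backcrossed to C57BL/6J, so a difference between genotypes cannot be told apart from one of strain where the label holds. The KO mice carry a CRISPR deletion within the miR-486 precursor, which lies in the Ank1 gene, in every cell of the animal, and the WT mice carry no engineered allele.

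There were 2 library sets, each with 1 total AGO2 library and 1 input per genotype. The methods speak of 3 samples per genotype run in duplicate, but not of how these map to the 2 sets or whether muscles were pooled. The sets may thus be repeats of the same material, and each SD over them (n = 2) may measure technical spread alone. The deposited value of each peak is the log2 fold of the AGO2 library over its input, with a −log10 p. A further 4 lists give the same values for 1 genotype's AGO2 library over the other's. The files hold no read counts, so the depth behind each value is unknown. An exact two-sided permutation test of 2 libraries against 2 cannot go below p = 0.333, so no genotype difference was tested.

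Each myosin molecule pairs heavy chains with smaller light chains. The heavy chain holds the motor head and the coiled-coil rod, the light chains wrap the neck of the head, and myosin-binding protein C crosslinks the filament and tunes the reach of the heads. Fibre types are defined by the heavy chain they use: Myh4 marks IIB fibres, Myh1 IIX fibres, Myh2 IIA fibres and Myh7 slow type I fibres. TA of the mouse is known as a mostly fast muscle. AGO2 is guided by the seed of a miRNA, and is best known for binding target sites in 3′UTRs, though it also crosslinks within coding sequence.

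The tissue matched its label at its defining markers: Acta1, Ckm, Ttn and Neb held 1010 listed peaks in WT set 1, 2088 in WT set 2, 1214 in KO set 1 and 2140 in KO set 2. Of the cardiac markers, Nppa and Myl7 had 0 peaks in every library, Tnnt2 had 0 to 2, and Myh6, whose reads can be shared with Myh7, had 4 to 16. The deleted miRNA gene Mir486 held 2 peaks in WT set 1 and 4 in WT set 2, with log2 folds from 3.50 to 6.62, and 0 in both KO libraries. WT set 1 stood apart from the other 3 libraries: abundant muscle mRNAs had higher folds over input there, with medians above 0 for 4 of 4 skeletal muscle markers against 1, 0 and 1 of 4 in WT set 2, KO set 1 and KO set 2. Values are therefore given for each library on its own.

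The member peaks lay almost wholly in coding sequence. By peak midpoint, 86.8% of member peaks in WT set 1, 92.9% in WT set 2, 90.2% in KO set 1 and 92.0% in KO set 2 were in CDS, a mean of 89.8 ± 4.26% (SD, n = 2) for WT and 91.1 ± 1.31% (SD, n = 2) for KO. Over all listed peaks the share was 51.8%, 40.2%, 35.5% and 39.7%, respectively. The 3′UTRs of these genes are short, 109 nt in Myh4 against 5817 nt of CDS, and at most 630 nt, in Mybpc1. A high CDS share was thus to be had from length alone, and no preference for CDS was tested. It was also not particular to these genes: in WT set 1, 649 of 664 Ttn peaks and 268 of 283 Neb peaks were in CDS. In the 3′UTRs of the 10 genes there were 10, 9, 8 and 11 peaks, and in introns 38, 38, 32 and 43.

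The few 3′UTR peaks were also low in fold. Their median log2 fold over input was −0.26 in WT set 1, −0.90 in WT set 2, −1.37 in KO set 1 and −0.80 in KO set 2, below 0 in each. Member peaks in CDS had medians of 1.89, 0.36, 0.08 and 0.44. Member peaks in introns had medians of 2.10, 1.70, 0.77 and 1.13, above the CDS median in all 4 libraries. For the slow genes of WT set 1 the order was the reverse, with 0.87 in introns and 1.28 in CDS. Some peaks called intronic by midpoint were short and ran into an exon. An example is the 4-nt Myh2 peak of WT set 2 at chr11:67176535-67176538. No 3′UTR peak passed the thresholds for enrichment given next.

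Enriched peaks, taken as those at or above 3 in both log2 fold and −log10 p, came almost entirely from WT set 1. There, 108 of 509 member peaks (21.2%) were enriched, against 3.57% of all listed peaks. In WT set 2, 7 of 840 (0.833%) were enriched, against 1.42% of all peaks. In KO set 1, 0 of 539 were enriched, against 0.848%, and in KO set 2, 7 of 790 (0.886%), against 1.23%. The mean was 11.0 ± 14.4% for WT and 0.443 ± 0.627% for KO (SD, n = 2), so the genotype difference was smaller than the spread between the WT sets.

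Fast and slow genes were both among the enriched. In WT set 1 the 6 fast genes gave 87 enriched of 370 peaks and the 4 slow genes 21 of 139. In WT set 2 they gave 7 of 723 and 0 of 117, and in KO set 2, 5 of 659 and 2 of 131. The mean of the fast genes' medians minus that of the slow genes was 0.21 and −0.02 log2 units in the WT sets, a mean of 0.09 ± 0.16 (SD, n = 2). In the KO sets it was 0.08 and 0.23, a mean of 0.16 ± 0.11 (SD, n = 2). These set 2 values do not rest on the same genes as those of set 1: Myh7 had 1 peak in WT set 2 and none in KO set 2, where the slow mean is over 3 genes, and Myl2 had 1 and 2. Without Myh7, a choice made after seeing the data, the difference was 0.21 and 0.23 in WT and 0.03 and 0.23 in KO. Without Myh7 and Myl2 it was 1.05 and 0.23 in WT and 0.50 and 0.55 in KO, so its size depended on which slow genes were counted.

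**Figure D1:**
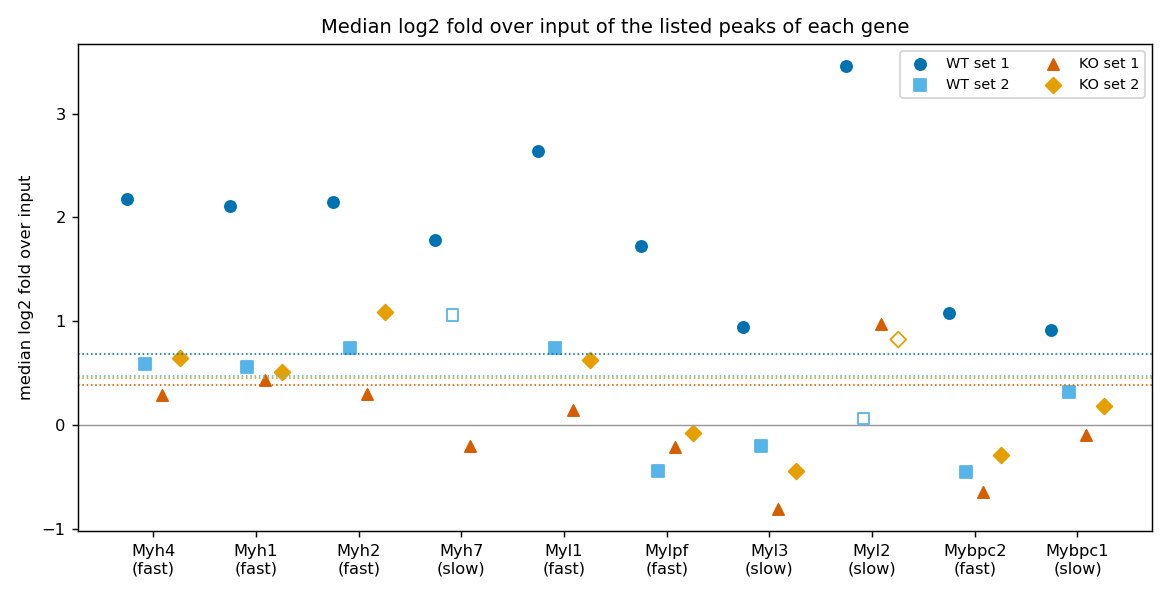
Median log2 fold over input of each gene's listed peaks (y axis) in each of the 4 AGO2 libraries (colours), with the 10 genes along the x axis. Open points rest on fewer than 5 peaks and the dotted line is the median of the list: the WT set 1 points lie highest for every gene, from 0.91 for Mybpc1 to 3.46 for Myl2.

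Among the heavy chains, Myh4, the IIB isoform, held the most peaks of the 10 genes. The gene lies at chr11:67238029-67260446 (GRCm38, plus strand), and had 128 peaks in WT set 1, 304 in WT set 2, 175 in KO set 1 and 250 in KO set 2. Its median log2 fold over input was 2.18, 0.59, 0.29 and 0.65, so that WT set 1 lay far above the other 3 libraries. Listed peaks covered 73.6%, 94.2%, 87.6% and 99.7% of its 5817 nt of coding sequence. In WT set 1, 32 of its peaks were enriched and in the other libraries none.

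Myh1, the IIX isoform, lies next to it at chr11:67200052-67224575 and had 103, 181, 72 and 182 peaks. The median log2 fold was 2.11 in WT set 1, 0.55 in WT set 2, 0.43 in KO set 1 and 0.51 in KO set 2. As for Myh4, all 26 enriched peaks were in WT set 1. Its coding sequence was covered to between 71.5% in WT set 1 and 92.7% in KO set 2.

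Myh2, the IIA isoform, at chr11:67171027-67197517, had fewer peaks, 55, 79, 66 and 84, and lower coverage, from 50.02% in WT set 1 to 72.5% in KO set 1. The median log2 fold was 2.15, 0.74, 0.30 and 1.09. It was the one heavy chain with enriched peaks outside WT set 1, with 16 there, 3 in WT set 2, 0 in KO set 1 and 4 in KO set 2. The KO set 2 median was at or above that of 88.8% of genes with at least 5 peaks in that list.

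Myh7, the slow heavy chain, at chr14:54970684-54994626 on the minus strand, was split by library set rather than by genotype. It had 53 peaks in WT set 1 and 51 in KO set 1, against 1 in WT set 2 and 0 in KO set 2. Listed peaks covered 56.4% and 54.3% of its 5805 nt of coding sequence in set 1, and 1.45% and 0% in set 2. The median log2 fold was 1.78 in WT set 1 and −0.20 in KO set 1. The single WT set 2 peak had a log2 fold of 1.06, the commonest value of that list, shared by 9.93% of all its peaks.

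The slow light chain Myl2 followed the same division. This gene, at chr5:122100951-122113472, had 10 peaks in each set 1 library, 1 in WT set 2 and 2 in KO set 2. Coding coverage was 76.3% and 76.1% in set 1 against 13.6% and 4.92% in set 2. In WT set 1 its median log2 fold, 3.46, was the highest of the 10 genes, reached by 0.547% of genes with at least 5 peaks, and 8 of 10 peaks were enriched. In KO set 1 the median was 0.97.

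Other slow fibre genes were read in the same libraries to see how far this division went. Tnnt1, the slow troponin T, had 18 and 12 peaks in the WT and KO libraries of set 1 and 3 and 4 in set 2. Tnni1, the slow troponin I, had 12 and 8 against 3 and 1, and Tnnc1, the slow and cardiac troponin C, 5 and 4 against 0 and 1. Atp2a2, the slow calcium pump, did not share it, with 33 and 37 peaks in set 1 and 34 and 39 in set 2. Casq2 had more in set 2, 16 and 20 against 4 and 6. Over the whole list of 7 slow fibre genes outside the thick filament there were 99 and 102 peaks in set 1 and 77 and 90 in set 2. The 7 fast fibre genes outside the thick filament had 215 and 239 in set 1 and 354 and 374 in set 2. In bulk muscle, fewer slow fibres and less slow mRNA per fibre cannot be told apart, and what differed between the sets was not tested.

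**Figure D2:**
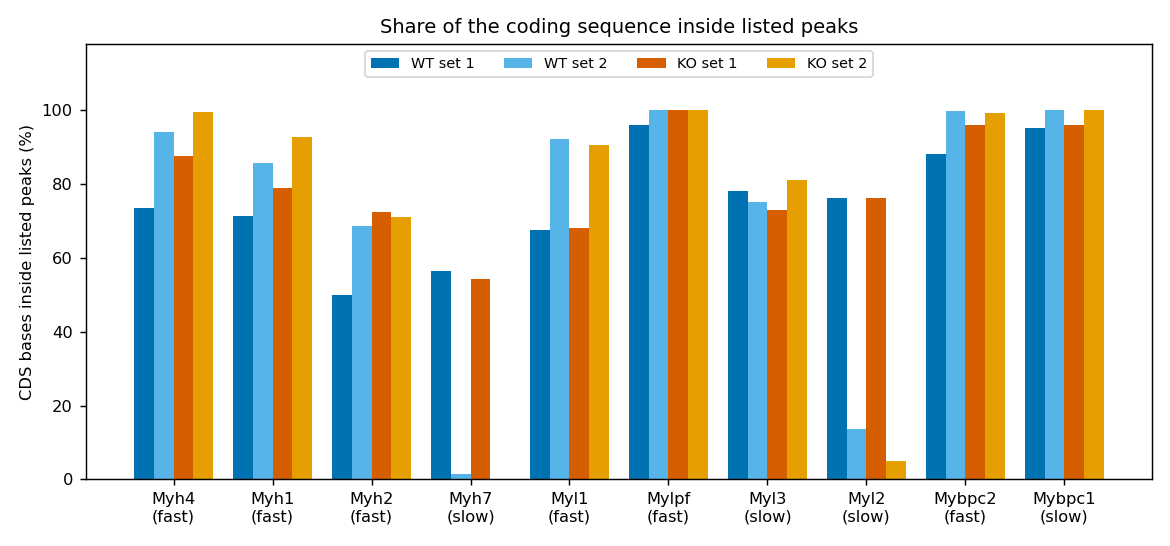
Percent of coding sequence covered by listed peaks (y axis, bars from 0) for each of the 10 genes (x axis) in the 4 AGO2 libraries (colours). Myh7 and Myl2 have bars of 54.3% to 76.3% in both set 1 libraries and at most 13.6% in both set 2 libraries, while the other genes are covered to at least 50.02% throughout.

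The other light chains were covered in all 4 libraries. Myl1, the fast essential light chain, at chr1:66924295-66945404, had 15, 26, 17 and 21 peaks, with median log2 folds of 2.64 in WT set 1, 0.74 in WT set 2, 0.14 in KO set 1 and 0.63 in KO set 2. There were 6 enriched Myl1 peaks in WT set 1 and 1 in WT set 2. Within its coding sequence 51.8% of 40-nt windows also occur in the pseudogene Mylf-ps, so reads there could have been split.

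Mylpf, the fast regulatory light chain, at chr7:127208890-127214298, was covered almost end to end, 96.1% in WT set 1 and 100% in the others. Even so, none of its 17, 17, 29 and 22 peaks was enriched in any library. Its median log2 folds were 1.72, −0.45, −0.22 and −0.08, below 0 outside WT set 1. Myl3, the slow essential light chain, at chr9:110741861-110769798, had 8, 7, 5 and 8 peaks with medians of 0.94, −0.20, −0.81 and −0.45. Unlike the other slow light chain, Myl3 kept its coverage in set 2, with 75.2% and 81.2% against 78.3% and 72.9% in set 1.

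Mybpc2, the fast myosin-binding protein C, at chr7:44501699-44524656, had 52, 116, 45 and 100 peaks and coverage of at least 88.2%. Its median log2 fold was 1.08 in WT set 1 and below 0 in the others, at −0.46, −0.65 and −0.29. Mybpc1, the slow isoform that fast fibres also express, at chr10:88518279-88605152, had 68, 108, 69 and 121 peaks and coverage of at least 95.3%. The medians were 0.91, 0.32, −0.09 and 0.18. The binding proteins had few enriched peaks for their number: 7, 3, 0 and 1 for Mybpc2 and 3, 0, 0 and 2 for Mybpc1. Mybpc1 held most of the intronic peaks of the 10 genes, 25, 20, 26 and 25.

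Reads can be hard to place between heavy chains. The coding sequences of Myh4 and Myh1 are 90.3% identical, those of Myh1 and Myh2 91.1%, those of Myh4 and Myh2 88.2%, and each is 77.6% to 78.1% identical to Myh7. Of all 40-nt windows of coding sequence, 24.8% in Myh4, 33.9% in Myh1 and 34.0% in Myh2 also occur in another gene, most often a heavy chain. In Myh7 the share is 28.7%, and its partner is the cardiac Myh6. In WT set 1 the covered share was lower inside such shared stretches than outside, 62.4% against 83.0% in Myh4, 60.1% against 87.0% in Myh1, 44.6% against 56.4% in Myh2 and 34.1% against 77.5% in Myh7. In WT set 2 this did not hold for Myh4, with 94.7% inside and 93.7% outside. For Myh1 it did, with 78.5% against 95.5%, and for Myh2 the gap was smaller, 66.6% against 71.0%. Because the shared stretches also occur in another gene, peaks in them are less certain to belong to the gene named.

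The fold over input was uneven along the heavy chains, and the unevenness recurred between libraries. When the coding sequence was cut into 10 equal parts, Myh4 was high in part 4 and in part 7. The median log2 fold of covered bases in part 7 was 3.37 in WT set 1, 2.37 in WT set 2, 1.79 in KO set 1 and 2.45 in KO set 2. In the last part it was 0.62, −0.76, −0.90 and −0.69, the lowest part in all 4 libraries. Myh2 was highest in part 8 in each library, at 4.32, 2.84, 2.60 and 3.01. Myh1 was highest in part 4 in WT set 1, WT set 2 and KO set 2, at 4.08, 1.55 and 1.62, while KO set 1 had 0.92 there and its highest value, 1.18, in part 2. Over the 10 parts, Pearson's r between libraries ranged from 0.90 to 0.98 for Myh4, from 0.82 to 0.91 for Myh1 and from 0.61 to 0.98 for Myh2. These are descriptions over 10 neighbouring stretches of the same sequence, which share base composition, and carry no p. For Myh7, r between WT set 1 and KO set 1 was 0.14.

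**Figure D3:**
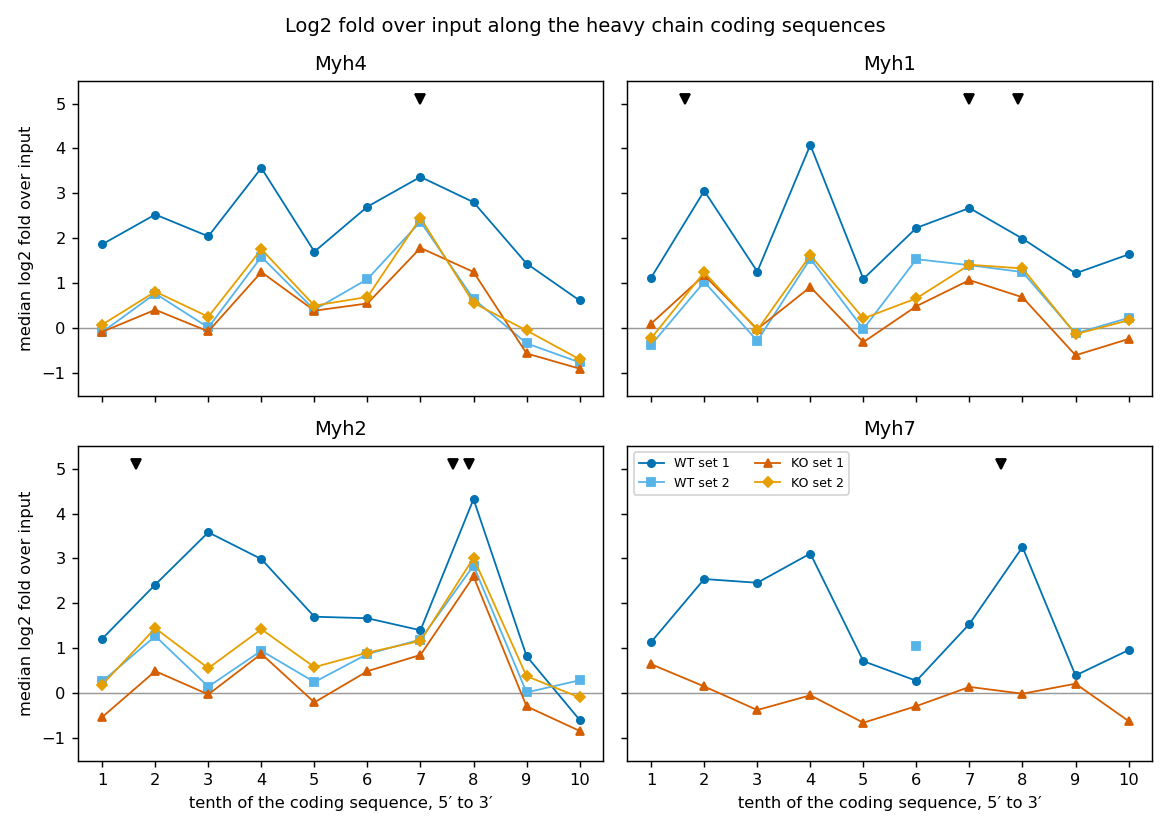
Median log2 fold over input of covered bases (y axis) in each of 10 equal parts of the coding sequence from start to stop codon (x axis), in 1 panel per heavy chain and 1 line per AGO2 library. Black triangles mark matches to the miR-133b-3p seed. The Myh4 lines are high in part 7, at 1.79 to 3.37, and lowest in part 10.

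Of these high stretches, part 7 of Myh4, part 8 of Myh2 and part 2 of Myh1 held a match to the seed of miR-133b-3p. Part 4 of Myh4 and part 4 of Myh1, which was highest in most libraries, held none. Seeds of 7 mature miRNAs known from muscle or commonly expressed were searched on the strand of the gene. The letters searched were GGACCAA for miR-133b-3p, ACATTCC for miR-206-3p, CGTCTTA for miR-208b-3p, AGTCTTA for miR-499-5p, CTACCTC for let-7a-5p, TGGTGCT for miR-29a-3p and TGTTTAC for miR-30a-5p. The mature sequences of the 3 that the values turn on are shown as RefSeq gives them (GRCm38.p6), with the seed, bases 2 to 8, in capitals. miR-133b-3p and miR-206-3p are muscle miRNAs, and miR-208b-3p is made from an intron of Myh7. miR-1a-3p, miR-133a-3p, miR-378a-3p and miR-486a-5p had no sequence in the miRNA reference used, so they were not searched by name. miR-1a-3p shares its seed with miR-206-3p, and miR-133a-3p with miR-133b-3p, so the letters searched do not tell them apart.
miR-133b-3p: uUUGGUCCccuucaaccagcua
miR-206-3p: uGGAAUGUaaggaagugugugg
miR-208b-3p: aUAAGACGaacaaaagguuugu

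In the 3′UTR peaks of the 10 genes, extended by 25 nt on each side, no match to any of the 7 seeds was found, in 0 of 10, 9, 8 and 11 peaks. Among all 3′UTR peaks of the lists, 4.41%, 3.34%, 2.92% and 3.32% held the 7 letters ACATTCC that pair with the miR-206-3p seed. With so few member peaks, the count of 0 says only that these letters were not in these windows.

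Coding sequence was then searched, a search added after the data had been seen. The 7 letters GGACCAA, which pair with the miR-133b-3p seed, occurred 10 times in the coding sequence of 5 members: 3 times each in Myh1 and Myh2, 2 times in Mybpc2, and 1 time each in Myh4 and Myh7. The other 6 seeds together matched 3 times. The GGACCAA matches lay in a listed peak in 10, 9, 10 and 9 cases in WT set 1, WT set 2, KO set 1 and KO set 2. In every such case the highest log2 fold over the 7 bases of the match exceeded the median of the gene's covered coding bases. The median excess was 1.60, 1.57, 1.28 and 1.60 log2 units. For the other 6 seeds, the matches in a peak numbered 3, 2, 2 and 2, of which 3, 1, 2 and 2 were above the median.

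The higher fold at this motif was not particular to the thick filament. Over all genes, CDS peaks with GGACCAA within 25 nt had a median log2 fold of 1.68, 1.47, 0.80 and 1.38, against 0.68, 0.21, 0.12 and 0.15 without it. The motif was in 2.71%, 2.56%, 3.09% and 3.03% of member CDS peaks and in 2.17%, 1.56%, 1.83% and 1.54% of all CDS peaks. CDS peaks of the members were shorter on average than all CDS peaks, with 102, 79.8, 103 and 83.1 nt searched per peak against 124, 128, 121 and 129 nt. A match within 25 nt of several neighbouring peaks was counted in each of them. In WT set 2, 20 member peaks held it and in KO set 2, 22, though only 9 matches lay in a peak in each. The member shares are thus raised by repeated counting.

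Because the heavy chains are so alike, the same place of the protein could be compared in a gene with the motif and a gene without it. The 8 heavy chain matches fall at 4 such places. The value at a place was the highest log2 fold over its 7 bases. Each base takes the log2 fold of the whole listed peak over it, so a value is not that of the 7 bases alone. The 4 heavy chains at each place are shown, 5′ to 3′ on the coding strand (GRCm38.p6), since they differ at few bases. The capitals are the 7 bases aligned with GGACCAA, and substitutions are counted from 1 at the 5′ end of these 7 bases, with the base of the motif first.

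Place 1 lies in exon 27 of Myh4 (chr11:67254020-67254050), exon 28 of Myh1 (chr11:67215861-67215891), exon 27 of Myh2 (chr11:67190327-67190357) and exon 29 of Myh7 (chr14:54978943-54978973). Myh4 and Myh1 hold the motif. Myh2 differs by A7G and Myh7 by G1A and A7G.
Myh4: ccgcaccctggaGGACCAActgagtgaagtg
Myh1: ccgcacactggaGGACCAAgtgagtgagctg
Myh2: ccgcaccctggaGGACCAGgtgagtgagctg
Myh7: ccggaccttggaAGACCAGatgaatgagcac

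At place 1 the log2 fold over input at the 7 bases of Myh4 was 3.49 in WT set 1, 2.66 in WT set 2, 2.53 in KO set 1 and 2.83 in KO set 2. In Myh1 it was 3.12, 2.25, 1.71 and 2.23. In Myh2, without the motif, it was 1.49, 1.19, 0.73 and 1.17. In Myh7 it was 1.54 in WT set 1, with no listed peak there in the other libraries. Both genes with the motif lay above both genes without it in each library where they were listed.

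Place 2 lies in exon 7 of Myh4 (chr11:67242785-67242814), exon 8 of Myh1 (chr11:67204563-67204592), exon 7 of Myh2 (chr11:67176537-67176566) and exon 9 of Myh7 (chr14:54990979-54991008). Here Myh1 and Myh2 hold the motif, and Myh4 and Myh7 differ from it by G1A and C4T.
Myh4: gggacccttgaAGATCAAattatcagtgcc
Myh1: gggacgctggaGGACCAAatcatcagcgcc
Myh2: gggacgctggaGGACCAAatcatcagtgcc
Myh7: ggtaccctggaAGATCAAatcatccaagcc

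At place 2 the log2 fold of Myh1 was 4.07, 2.02, 1.97 and 1.87, and that of Myh2 was 4.02, 2.37, 1.26 and 2.60, in the same order of libraries. In Myh4, which had the most peaks of all members, it was 1.18, 0.03, −0.09 and 0.00. In Myh7 it was 2.54 in WT set 1 only. The order of place 1 was thus turned for Myh4, which was among the high genes where it holds the motif and the lowest where it does not. Of the 34 windows of 40 nt over the 7 bases, 9 were shared between Myh1 and Myh2 here, and 0 between heavy chains at the other places.

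Place 3 lies in exon 30 of Myh4 (chr11:67255418-67255448), exon 31 of Myh1 (chr11:67219297-67219327), exon 30 of Myh2 (chr11:67192522-67192552) and exon 32 of Myh7 (chr14:54975268-54975298). Myh1 and Myh2 hold the motif, Myh4 differs by A3T and C5T, and Myh7 differs by G2C and A3T.
Myh4: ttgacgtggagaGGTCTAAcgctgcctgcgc
Myh1: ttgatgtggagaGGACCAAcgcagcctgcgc
Myh2: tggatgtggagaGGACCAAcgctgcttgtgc
Myh7: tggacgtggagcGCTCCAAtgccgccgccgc

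At place 3 the log2 fold was 4.32, 3.00, 2.60 and 3.21 in Myh2 and 2.86, 1.88, 1.43 and 1.94 in Myh1. In Myh4 it was 3.01, 1.17, 1.25 and 0.90. The genes with and without the motif overlapped in WT set 1, where Myh4 lay between Myh1 and Myh2, and in KO set 1 the gap between Myh1 and Myh4 was small. Myh7 had no listed peak over these bases.

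Place 4 lies in exon 29 of Myh4 (chr11:67254807-67254837), exon 30 of Myh1 (chr11:67217883-67217913), exon 29 of Myh2 (chr11:67191729-67191759) and exon 31 of Myh7 (chr14:54975915-54975945). Myh2 and Myh7 hold the motif, and a single base sets the others apart from it, C5G in Myh4 and C5A in Myh1.
Myh4: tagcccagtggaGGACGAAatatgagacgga
Myh1: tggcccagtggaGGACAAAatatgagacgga
Myh2: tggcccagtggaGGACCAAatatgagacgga
Myh7: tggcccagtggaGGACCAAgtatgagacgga

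At place 4 the log2 fold was 3.20, 2.79, 2.69 and 3.01 in Myh2. The Myh2 value of WT set 1 was that of a 162-nt peak. Over the coding bases of that peak, Myh4 differs from Myh2 at 13 bases, Myh1 at 16 and Myh7 at 24. The values are thus no contrast of 1 base. For the other genes the values at place 4 were as follows. The log2 fold was 2.81, 1.43, 1.43 and 1.34 in Myh4 and 2.45, 0.91, −0.04 and 0.92 in Myh1. Myh7 had 3.25 in WT set 1 and 0.28 in KO set 1, and no listed peak in set 2. In KO set 1 the Myh7 value lay below that of Myh4, so the genes with and without the motif overlapped there.

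Over the 4 places and 4 libraries, the genes with the motif lay above those without it in 14 of 16 pairs of place and library, and overlapped in 2. Many pairs had 1 gene only on 1 side, because Myh7 had no listed peak there. These were all pairs of set 2, place 3 in every library, and places 1 and 2 in KO set 1. How often heavy chains separate in this way at other aligned places was not computed, so the count has no background. The mean difference over the 4 places was 1.29 in WT set 1, 1.58 in WT set 2, 1.16 in KO set 1 and 1.79 in KO set 2. This gave 1.43 ± 0.21 for WT and 1.48 ± 0.44 for KO (SD, n = 2), so the genotypes differed by less than the sets did. The 4 libraries read the same sequences, the 4 places come from related genes, and the comparison was chosen after the values were seen, so no test was made. A match to the seed is a description of these letters and does not show which miRNA, if any, was bound.

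**Figure D4:**
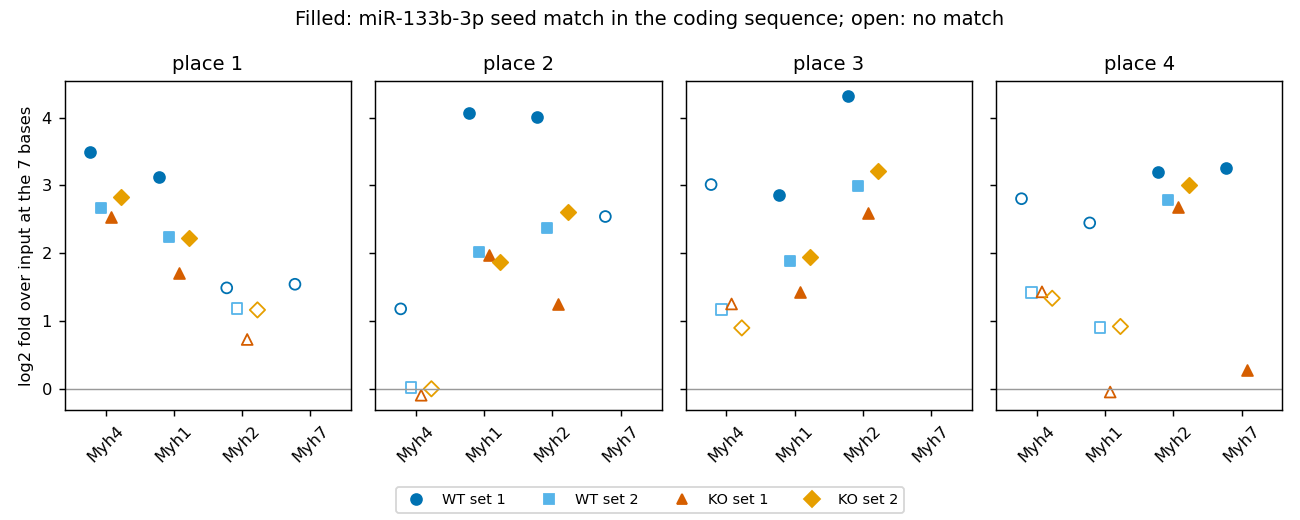
Highest log2 fold over input (y axis) of the listed peaks over the 7 bases aligned with the miR-133b-3p seed match. The 4 places of the heavy chains are shown, for each gene and AGO2 library. Filled points hold the match and open points do not: Myh4 is at 2.53 to 3.49 at place 1, where it holds it, and at −0.09 to 1.18 at place 2, where it does not.

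Recurrence between sets was computed for enriched member peaks only, so no share over all enriched peaks stands beside these values. WT set 2 had only 7 enriched member peaks, which limits how many could recur. In WT, 4 of the 108 enriched member peaks of set 1 (3.70%) overlapped an enriched peak of set 2, and 4 of the 7 of set 2 (57.1%) overlapped one of set 1. In KO, set 1 had no enriched peak to overlap. With a log2 fold of at least 1 in place of 3, the WT shares were 38.5% and 89.8%. When 50% of both peaks had to overlap, 1 peak of each WT set recurred, 0.926% and 14.3%. The 4 recurrent sites lay in Myh2 (2 sites), Myl1 and Mybpc2. At the 2 Myh2 sites the enriched peaks of the sets shared only 4 nt and 3 nt.

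The Myh2 sites were in coding exons 7 and 29 of 39, each in the exon of a GGACCAA match. In exon 7, at chr11:67176595-67176629, the WT log2 folds were 3.62 in set 1 and up to 3.59 in set 2, and the KO values were 1.26 in set 1 and up to 2.52 in set 2. In exon 29, at chr11:67191635-67191796, which spans the match of place 4, the highest values were 3.20 and 3.04 in WT and 2.96 and 3.14 in KO. The exon 29 stretch was thus as high in KO as in WT.

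The Myl1 and Mybpc2 sites were intronic, in stretches where neither GENCODE nor RefSeq gives an exon. They are shown on the coding strand (GRCm38.p6) because they were enriched in both WT sets. The capitals mark the bases covered by enriched peaks of both sets.
Myl1, intron 1 of 6, chr1:66936760-66936876: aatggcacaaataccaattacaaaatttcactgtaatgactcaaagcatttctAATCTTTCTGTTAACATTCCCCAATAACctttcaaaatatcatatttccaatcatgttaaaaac
Mybpc2, intron 11 of 27, chr7:44515411-44515559: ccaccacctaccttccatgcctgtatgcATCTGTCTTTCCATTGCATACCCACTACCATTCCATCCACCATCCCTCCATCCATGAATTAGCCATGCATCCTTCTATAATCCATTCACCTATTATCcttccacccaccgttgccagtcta

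The Myl1 site had a log2 fold over input of 4.23 in WT set 1 and 3.48 in WT set 2, and no listed peak in either KO library. WT AGO2 over KO AGO2 it was 0.87 in set 1 and 2.43 in set 2, the latter with a deposited −log10 p of 34.4. The 28 bases in capitals hold ACATTCC, the match to the miR-206-3p seed. The site is 28.2% GC and has no repeat-masked base.

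The Mybpc2 site had log2 folds of 4.47 and 3.80 in WT set 1 and set 2, and of 2.17 and 1.15 for WT over KO. In KO set 2 a peak of 4.57 lay beside it, at chr7:44515286-44515350, so this stretch of intron 11 was high in that KO library too. A further peak of the same intron, at chr7:44515189-44515275, was at 2.84 and 3.59 in WT. Of the 149 bases of the printed site, 14.1% are repeat-masked.

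WT AGO2 was next compared with KO AGO2 directly. Over the 10 genes, the median of the gene medians of log2 WT over KO was 0.69 in set 1 and −0.09 in set 2, a mean of 0.30 ± 0.55 (SD, n = 2). On the KO peaks, log2 KO over WT was −0.69 in set 1 and 0.07 in set 2, a mean of −0.31 ± 0.54 (SD, n = 2). The direction differed between sets, and the mean was smaller than the SD. The medians over all listed peaks were 0.74 and 0.30 for WT over KO and 0.72 and 0.27 for KO over WT, each list being drawn on the peaks of its own numerator.

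Few member peaks were past both thresholds in the direct lists. For WT over KO there were 5 of 509 in set 1 (0.982%, against 0.469% of all listed peaks) and 0 of 840 in set 2 (against 0.0192%). For KO over WT there were 2 of 539 in set 1 (0.371%, against 0.179%) and 0 of 790 in set 2 (against 0.0144%). The WT and KO lists of a set share the same libraries and are not independent of each other.

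**Figure D5:**
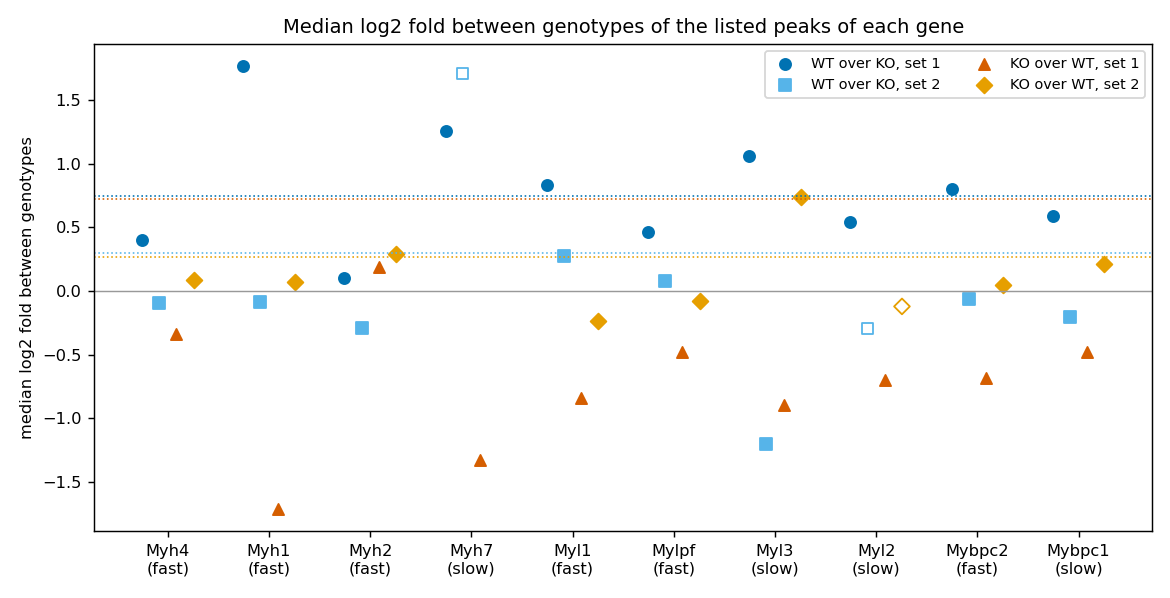
Median log2 fold of WT AGO2 over KO AGO2 and of KO AGO2 over WT AGO2 (y axis) for each of the 10 genes (x axis), in set 1 and set 2 (colours). Open points rest on fewer than 5 peaks and dotted lines are list medians: Myh1 is at 1.77 for WT over KO in set 1 and at −0.08 in set 2.

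Among the heavy chains, Myh1 had the largest shift of set 1. Its median log2 WT over KO was 1.77, reached by 3.88% of genes with at least 5 peaks, and its median log2 KO over WT was −1.72. In set 2 the values were −0.08 and 0.07. Myh7 had medians of 1.26 and −1.33 in set 1 and a single peak in set 2. Myh4 was at 0.40 and −0.34 in set 1 and −0.09 and 0.09 in set 2, and Myh2 at 0.10 and 0.19 in set 1 and −0.29 and 0.29 in set 2. The neighbouring fast heavy chains thus had set 1 medians from 0.10 to 1.77 for WT over KO.

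The peaks of Myh1 and Myh7 past both thresholds were short. In Myh1 both lay in exon 17 of 40, at chr11:67209257-67209258 and chr11:67209288-67209302, with log2 WT over KO of 3.02 and 3.05 in set 1 and −0.09 and −0.10 in set 2. The 15 bases of the longer one also occur in Myh4. In Myh7 they lay in exon 20 of 41, at chr14:54985798-54985821, with 3.36, and in exon 9, at chr14:54991003-54991009, with 3.42. The Myh7 stretches had no listed peak in set 2. The remaining one was the Mybpc2 intron 11 peak at chr7:44515189-44515275, with 3.13 in set 1 and 1.09 in set 2, the same direction in both.

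For the light chains, log2 WT over KO in set 1 and set 2 was 0.83 and 0.28 in Myl1, 0.46 and 0.08 in Mylpf, 1.06 and −1.20 in Myl3, and 0.54 and −0.29 in Myl2, the last on 1 peak in set 2. Myl3 thus had the widest change of direction between sets. For the binding proteins it was 0.80 and −0.06 in Mybpc2 and 0.59 and −0.20 in Mybpc1. The fast genes minus the slow genes gave −0.14 and −0.03 for WT over KO, a mean of −0.08 ± 0.07 (SD, n = 2), and 0.21 and −0.25 for KO over WT, a mean of −0.02 ± 0.32 (SD, n = 2). The set 2 value for WT over KO included the single Myh7 peak, at 1.71, and that for KO over WT had no Myh7 peak. Without Myh7, WT over KO gave 0.00 in set 1 and 0.54 in set 2, and the direction of the mean turned, to 0.27. KO over WT gave 0.05 and −0.25, so no direction of fast against slow held across sets.

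Both KO over WT peaks past the thresholds were intronic. In intron 1 of Myl1, at chr1:66941635-66941667, the log2 KO over WT was 4.75 in set 1 with a log2 fold over the KO input of 1.38. In intron 2 of 28 of Mybpc1, at chr10:88577573-88577611, it was 3.93 in set 1 and 0.63 in set 2, with log2 folds over the KO input of 0.89 and 0.59. Neither peak was enriched over its own input.

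The over-input and direct values of a set together imply how the inputs compared, which was computed after the data had been seen. In set 1 the implied log2 WT input over KO input was −1.38 for Myh4, 0.11 for Myh1, −1.58 for Myh2 and −0.55 for Myh7. It was −1.58 for Myl1, −1.60 for Mylpf, −2.70 for Myl3 and −1.11 for Myl2, −0.77 for Mybpc2 and −0.44 for Mybpc1, against −0.38 over all genes. The Myl3 value of set 1 rests on 3 matched peaks and that of Myl2 on 7. Outside the members, Acta1 had −1.17 and Ckm −1.22 in set 1, so a low implied input was not particular to the thick filament. In set 2 the implied value lay between −0.17 and 0.39 for 7 of the 8 genes with matched peaks. It was −1.23 for Myl3, against −0.09 over all genes. The high folds over input of most members in WT set 1 thus came with a lower implied input of the same genes, and the part of either library in them was not tested.

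Myh7 also hosts Mir208b, in intron 31 of 40. A peak at chr14:54975711-54975731 covered the mature miR-208b-3p shown above, which lies at chr14:54975710-54975731, in WT set 1 only. Its log2 fold over input was 2.04 with a deposited −log10 p of 0.73, below the threshold, and WT over KO it was 1.33. The other 3 libraries listed no peak there.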

How the data were processed

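The authors trimmed reads with cutadapt, mapped them with STAR to mm10 (GRCm38), collapsed duplicates by UMI and called peaks with CLIPper, per the methods and the labels. Each deposited list gives, per peak, a log2 fold of normalized reads in 1 library over its input or over the other genotype, and a −log10 p of at most 400 by the authors' script. Counts, depth and replicate merging are not given in the sources used here. The miR-486-enriched libraries were not analysed here.

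From the 8 lists, peaks were joined to GENCODE M21 genes in Python 3.11.15 with pandas 2.3.3. A gene's value was the median log2 fold of its listed peaks, and regions went by peak midpoint in the order CDS, UTR, noncoding exon, intron. Sequences were read from GRCm38.p6 with pysam 0.24.0, and heavy chains aligned with Biopython 1.88. Overlap, region and motif steps were tested on simulated data and recovered all planted cases.

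All members are named. Single peaks are named when enriched in both sets of a genotype, past log2 3 and −log10 p 3 in a direct list, or at Mir208b. The members and lists were chosen with earlier results of these data known. Alternatives changed thresholds, overlap, the gene summary, the region rule, the genes and the sets used.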

Additional observations from a re-analysis of the deposited data

How the results depend on the processing

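No paired test was made, because the files hold no read counts and there are only 2 sets. The direct lists do compare WT with KO within each set, and their 2 values per result are given above. Of 62 alternatives over 13 results, 43 moved a value by less than 1 SD over the sets. These include 24 that left out 1 set and could not do otherwise, because each of 2 values lies within 1 SD of their mean. The sign changed under 11 of the 62, in all 4 fast minus slow differences and both members' medians, so none of these 6 has a settled direction. The causes were not tested. With a log2 threshold of 1, 48.0% of WT and 22.5% of KO member peaks were enriched. With peaks of −log10 p of at least 3 alone, fast minus slow was −0.11 over the WT input and −0.66 over the KO input, both of opposite sign to the reported means. In the WT over KO lists it was −0.34, from set 1 alone, because no slow gene had such a peak in set 2. In the reverse lists it was −0.95, with the set 1 value, −1.73, resting on 1 slow peak. The members' median of the reverse lists turned to 1.41. Less its list median, the members' WT over KO median turned to −0.22. Weighting by peak length gave 0.027 for fast minus slow over the KO input, and leaving out Mybpc1 gave −0.16 for WT over KO. Leaving out Myh7 turned WT over KO to 0.27. Leaving out Myh7 and Myl2 gave 0.64 over the WT input, 0.53 over the KO input and 0.29 for WT over KO. The CDS share of WT and KO member peaks was 95.2% and 96.2% with at least 50% of the peak in exons, 66.3% and 57.1% for enriched peaks, and 82.4% and 83.0% by 5′ end. Single sets ranged from 0.833% to 21.2% (WT) and 0% to 0.886% (KO) enriched; fast minus slow from −0.02 to 0.21 and 0.08 to 0.23 over input, −0.14 to −0.03 for WT over KO and −0.25 to 0.21 for KO over WT; members' medians from −0.09 to 0.69 and −0.69 to 0.07; CDS shares from 86.8% to 92.9% and 90.2% to 92.0%; recurrence from 3.70% to 57.1%; and the motif difference from 1.29 to 1.58 (WT) and 1.16 to 1.79 (KO). Unknown depth and 2 libraries per genotype limit all of these.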

Other observations

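Among 19 other thick filament genes, 14 or 15 had a listed peak in each library, and Mybpc3, Mybphl, Myl7 and Mylk3 had none in any. Mybph, a shorter relative of myosin-binding protein C, had 10 peaks in WT set 1, 12 in WT set 2, 3 in KO set 1 and 0 in KO set 2. Its median log2 WT AGO2 over KO AGO2 was 3.66 in set 1, with 5 of 10 peaks past both thresholds, and 2.28 in set 2, so both sets had the same direction. Few genes with at least 5 peaks reached these values, 0.0805% in set 1 and 0.0921% in set 2. None of the Mybph peaks was enriched over its own input. Their median log2 fold over input was 0.94 in WT set 1, −0.36 in WT set 2 and 0.80 in KO set 1. Mybph was named after its values were seen.

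Mylk4, a myosin light chain kinase family member, went the other way, with a median log2 WT over KO of −0.90 in set 1 and −0.68 in set 2. On the KO peaks its log2 KO over WT was 1.66 in set 1, with 20 of 124 peaks past both thresholds, and 0.70 in set 2, with 0 of 121. For Hsp90aa1, a chaperone used in myosin folding, log2 WT over KO was 1.27 and 1.16 and log2 KO over WT −0.75 and −1.29. The direct lists do not separate AGO2 binding from the level of the mRNA, and none of these values was tested.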
